A study of Mus musculus with 16 samples.

Results

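The catecholamine and monoamine pathway was followed through 8 genes, which is 8 of the 22609 gene symbols counted: the synthesis genes *Th*, *Ddc*, *Dbh* and *Gch1*, the transporters *Slc18a2* and *Slc6a2*, and the breakdown enzymes *Maoa* and *Maob*. They were taken by symbol, with earlier results of these data known, from the counts of 16 RNA-seq libraries of sorted sensory neurons. The neurons came from TG (trigeminal ganglia), NG/JG (nodose and jugular ganglia), L3-L5 DRG (lumbar dorsal root ganglia) and T10-L1 DRG (thoracolumbar dorsal root ganglia), with 4 libraries for each ganglion. All groups shared strain, genotype and state: young adult naive C57BL/6J mice labelled male, with Pirt cre/- and Rosa26 LSL-tdTomato/+, so that TdTomato marks cells in which the promoter of the sensory neuron gene *Pirt* drives Cre. Brightly fluorescent cells of whole ganglia from both sides were gated and sorted in 2 passes, so a neuron with little TdTomato is not represented. No agent was given, and the ganglia were compared to ask how sensory neurons differ between the body regions they supply.

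Catecholamine synthesis starts with tyrosine hydroxylase (*Th*), which needs the cofactor tetrahydrobiopterin made from GTP by GTP cyclohydrolase (*Gch1*). Its product is turned into dopamine by aromatic amino acid decarboxylase (*Ddc*), which also makes serotonin, and dopamine into noradrenaline by dopamine beta-hydroxylase (*Dbh*). The vesicular transporter (*Slc18a2*) loads monoamines into vesicles, the noradrenaline transporter (*Slc6a2*) takes noradrenaline back up, and the monoamine oxidases (*Maoa*, *Maob*) degrade monoamines at the outer mitochondrial membrane. In dorsal root ganglia *Th* is best known from C-LTMRs, the unmyelinated low-threshold mechanoreceptors of hairy skin, while the complete set for noradrenaline is known from sympathetic neurons and adrenal chromaffin cells.

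The genes lie at chr7:150078657-150117033 (*Th*, minus strand), chr11:11714104-11798047 (*Ddc*, minus), chr2:27020753-27038720 (*Dbh*, plus), chr14:47773570-47809088 (*Gch1*, minus), chr19:59335368-59370502 (*Slc18a2*, plus), chr8:95483978-95525566 (*Slc6a2*, plus), chrX:16196824-16264944 (*Maoa*, plus) and chrX:16286408-16394492 (*Maob*, minus) in mm9, by GENCODE M1. *Maoa* and *Maob* are neighbours whose 3′ ends face each other 21463 bases apart, and no exon of any of the 8 genes overlapped an exon of another gene. Promoters were given for 6 of the 8, and the 250 bases before the start (RefSeq, GRCm38.p6) are shown for *Th* and *Maoa*, the members of highest level, and for the 2 listed starts of *Ddc*, the member with the lowest p in the joint test of the 4 ganglia, though that test was not passed. Capitals mark 3 motifs searched on both strands without mismatch: the cAMP response element (TGACGTCA), the GC box (GGGCGG, seen as CCGCCC on the reverse strand) and the TATA box (TATAAA, seen as TTTATA on the reverse strand).

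Th, chr7:142899996-142900245, minus strand: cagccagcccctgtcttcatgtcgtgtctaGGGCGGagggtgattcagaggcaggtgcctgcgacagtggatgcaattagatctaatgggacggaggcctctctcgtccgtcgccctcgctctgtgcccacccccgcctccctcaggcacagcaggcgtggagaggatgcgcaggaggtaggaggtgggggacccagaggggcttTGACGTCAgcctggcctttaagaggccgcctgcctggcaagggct
Maoa, chrX:16619448-16619697, plus strand: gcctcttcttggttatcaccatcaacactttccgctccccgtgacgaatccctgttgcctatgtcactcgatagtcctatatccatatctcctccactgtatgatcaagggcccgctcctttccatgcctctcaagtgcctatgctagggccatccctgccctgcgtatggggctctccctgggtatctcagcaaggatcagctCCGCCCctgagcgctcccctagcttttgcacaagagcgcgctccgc
Ddc first start, chr11:11898145-11898394, minus strand: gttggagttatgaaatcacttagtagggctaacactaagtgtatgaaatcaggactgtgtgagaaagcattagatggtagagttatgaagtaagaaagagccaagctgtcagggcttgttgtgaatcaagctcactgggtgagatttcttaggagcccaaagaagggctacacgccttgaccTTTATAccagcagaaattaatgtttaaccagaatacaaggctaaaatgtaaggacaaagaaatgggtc
Ddc second start, chr11:11890409-11890658, minus strand: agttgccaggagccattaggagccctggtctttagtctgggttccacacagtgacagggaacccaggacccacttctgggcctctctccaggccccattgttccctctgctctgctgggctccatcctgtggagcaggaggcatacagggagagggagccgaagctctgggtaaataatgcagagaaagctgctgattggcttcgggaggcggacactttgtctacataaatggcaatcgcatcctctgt

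The *Th* window held 1 cAMP response element, which begins 45 bases before the start, and *Th* was the only member among the 6 with one. Of all 32851 promoter windows of this length, 1.55% held that element, 32.7% a GC box and 12.4% a TATA box, which the first *Ddc* window held 68 bases before its start. G and C made up 64.4% of the *Th* window and 56.8% of the *Maoa* window, beside a median of 52.4% over all windows. These matches describe letters in the window and were not tied to any measurement here.

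Reads on genes ranged from 4735624 to 13333318 per library, and a count of 3, used as the floor, was worth 0.225 to 0.633 CPM (counts per 1e6 reads on genes). The reads carried no molecular identifiers, so the floor covers counting error only. L3-L5 DRG library 4 stood apart as the shallowest, with 66.9% of its assigned, unassigned and ambiguous reads off genes or ambiguous (30.2% to 51.9% elsewhere). Though shallowest, it had reads on 18571 genes, the most of the 16 libraries. T10-L1 DRG library 1 came next on both, with 51.9% and 16694 genes. What part stray reads had in the low counts of these libraries was not tested. *Pirt* was read in all 16 libraries at 16.8 to 308 CPM and the 9 sensory neuron markers summed to 673 to 9643 CPM, but the glial *Apoe* reached 10417 to 58602 CPM, so transcripts of satellite glia were abundant in every library. The mice are labelled male, yet every library held 1279 to 8362 reads on *Xist* and none held a read on 8 genes of chromosome Y, which leaves the sex of the animals behind the X-linked *Maoa* and *Maob* at odds with the label. Between bulk libraries, fewer cells of a type and less RNA per cell cannot be told apart.

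No member passed the test of edgeR (quasi-likelihood, adjusted p under 0.05) in any pair of ganglia or among the 4 ganglia together. The filter on low counts passed 6 members for L3-L5 against T10-L1 DRG, 5 for each other pair and 6 for the joint test. *Dbh* was never tested, *Slc6a2* was tested once and *Ddc* in 2 of the 7 comparisons. The share of all tested genes called was 0% for L3-L5 against T10-L1 DRG, 0.0322% for NG/JG against T10-L1 DRG, 0% for NG/JG against L3-L5 DRG, 5.87% for TG against T10-L1 DRG, 0% for TG against L3-L5 DRG, 0.0510% for TG against NG/JG and 3.01% among the 4 ganglia. DESeq2 called 8 pairwise differences of members, made up of 0, 2, 1, 3, 2 and 0 in the order of the pairs above, where it called 0.488%, 6.14%, 4.82%, 15.0%, 11.3% and 6.39% of all genes. It also called *Ddc* among the 4 ganglia, beside 12.7% of all genes. In counts simulated for TG against NG/JG, 94 of the 162 genes called by DESeq2 had been left unchanged. In the same counts edgeR called 21 of the 200 genes changed 8-fold. These counts were drawn from the spread that edgeR fitted to that pair, where DESeq2 called no member. They therefore give no rate of false calls for the members called in other pairs.

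**Figure D1:**
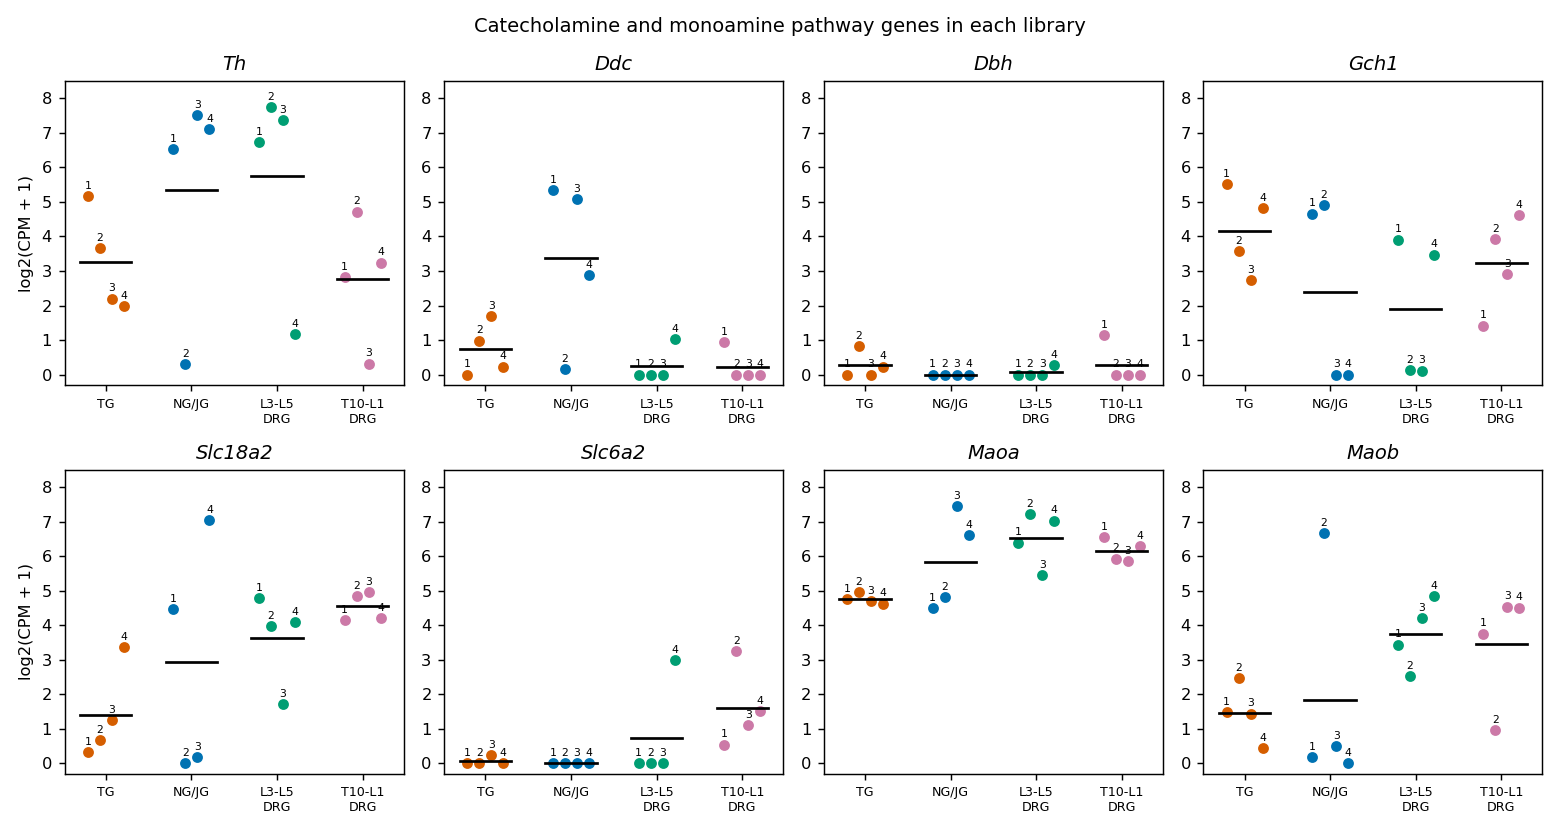
Level of each of the 8 genes in each of the 16 libraries, as log2(CPM + 1) (vertical axis) by ganglion (horizontal axis); points are libraries with their numbers and bars are means of the 4 log2 values. *Maoa* was read everywhere and *Th* was high in 3 of 4 NG/JG and 3 of 4 L3-L5 DRG libraries, while *Dbh* stayed at or below 1.22 CPM.

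*Th* was high in some libraries of L3-L5 DRG and NG/JG and nearly unread in others. It was read at 105, 212, 163 and 1.27 CPM in L3-L5 DRG libraries 1 to 4, and at 91.0, 0.228, 182 and 137 CPM in the NG/JG libraries. In TG it was 35.2, 11.6, 3.61 and 2.99 CPM, and in T10-L1 DRG 6.11, 25.3, 0.247 and 8.48 CPM. Thus 3 libraries of L3-L5 DRG and 3 of NG/JG stood above every TG and T10-L1 DRG library, whereas L3-L5 DRG library 4 and NG/JG library 2 held only 6 and 2 reads and made all groups overlap. By mean the order was L3-L5 DRG (120 ± 90.7 CPM, SD, n = 4), NG/JG (102 ± 77.6), TG (13.3 ± 15.1) and T10-L1 DRG (10.04 ± 10.8).

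The fitted difference of *Th* between L3-L5 DRG and T10-L1 DRG was 3.60 ± 1.35 log2 units (standard error), with an adjusted p of 0.785 by edgeR and 0.172 by DESeq2. Leaving out L3-L5 DRG library 4 raised the difference to 3.99 log2 units, with an adjusted p of 0.331 (edgeR). *Th* in NG/JG was 3.48 ± 1.55 log2 units above T10-L1 DRG (edgeR, adjusted p = 0.837) and 0.09 ± 1.39 below L3-L5 DRG by the fit, so the 2 upper ganglia of that order did not differ beyond their spread. TG lay below both, by 2.92 ± 1.16 log2 units against L3-L5 DRG and 2.85 ± 1.35 against NG/JG, with adjusted p of 0.209 and 0.520 (edgeR). The 2 lower ganglia differed by 0.73 ± 1.17 log2 units, TG being higher, and without TG library 1 the sign turned (-0.24).

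The 6 markers of C-LTMRs went with *Th* in some comparisons and not in others. By edgeR the median log2 fold change of those tested was 1.75 for L3-L5 against T10-L1 DRG, with none called. It was -2.25 for TG against L3-L5 DRG, and both have the sign of *Th*. The median of the 9 sensory neuron markers had the same sign in these pairs, at 1.36 and -1.30, so this sign is not particular to C-LTMR markers. For NG/JG against T10-L1 DRG, where *Th* was higher, the C-LTMR median was -0.18 and the sensory neuron median 0.22. *Zfp521* peaked in L3-L5 DRG library 3 (160 CPM) and *Cdh9* in NG/JG library 2 (23.0 CPM). *Fam19a4*, a chemokine-like gene of C-LTMRs, was 39.8, 134, 108 and 7.39 CPM in L3-L5 DRG libraries 1 to 4, high in the same 3 libraries as *Th*. In NG/JG it was 0.417, 50.0, 1.80 and 0 CPM, and so it was high only in library 2, the one with 2 reads of *Th*. *Gfra2*, a receptor subunit for the neurotrophic factor neurturin, was 59.96, 86.7, 36.8 and 150 CPM in NG/JG and 149, 256, 144 and 32.3 CPM in L3-L5 DRG, so that it was well read in the *Th*-rich NG/JG libraries too. *P2ry1*, a purine receptor, was 82.1 CPM in NG/JG library 1 and at most 0.553 CPM in libraries 3 and 4, and in L3-L5 DRG it was highest in library 4, at 58.5 CPM. The 6 markers of that list summed to 134 to 494 CPM in L3-L5 DRG, 90.4 to 250 in NG/JG, 106 to 280 in T10-L1 DRG and 38.8 to 84.0 in TG. *Slc17a8*, the vesicular glutamate transporter of C-LTMRs, stayed at or below 7.40 CPM in all 16 libraries. Sensory neuron markers moved with *Th* within L3-L5 DRG, where the 9 summed to 3241, 8517, 9643 and 950 CPM in libraries 1 to 4, and summed to 1134, 3438, 3994 and 1730 CPM in NG/JG. Their sums were 673 to 3035 CPM in TG and 1584 to 3271 CPM in T10-L1 DRG. The part of neuron types or of other cells in the *Th* differences was not tested.

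*Ddc* was read at 39.5, 0.114, 33.0 and 6.41 CPM in the NG/JG libraries, from 284, 1, 239 and 62 reads. Every TG library held 13 reads or fewer, and the DRG libraries held none apart from 5 reads in L3-L5 DRG library 4 and 6 in T10-L1 DRG library 1. NG/JG libraries 1, 3 and 4 therefore lay above all 12 libraries of the other ganglia, and library 2 within their range. The mean was 19.8 ± 19.4 CPM in NG/JG (SD, n = 4) against 0.848 ± 1.02 in TG, 0.229 ± 0.459 in T10-L1 DRG and 0.264 ± 0.528 in L3-L5 DRG. The fit of TG against NG/JG gave -4.26 ± 2.07 log2 units with an adjusted p of 0.535, and the joint test of 4 ganglia an adjusted p of 0.146 (edgeR; 0.0356 by DESeq2). Against T10-L1 DRG and L3-L5 DRG, where edgeR's filter removed *Ddc*, DESeq2 gave adjusted p of 0.0156 and 0.0235, NG/JG being higher. Both DRG means lie under the floor, so no fold is given.

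*Th* and *Ddc* occurred together in the same 3 NG/JG libraries, at 38.5, 76.9 and 57.9 RPKM (CPM divided by exon length in kilobases) for *Th* and 9.07, 7.59 and 1.47 RPKM for *Ddc*. In L3-L5 DRG libraries 1 to 3, by contrast, *Th* reached 44.4, 89.8 and 69.0 RPKM with no read of *Ddc*. Counting more than 3 reads as present, both genes were present in 7 of 16 libraries, and with *Slc18a2* in 5 of them. In L3-L5 DRG library 4, T10-L1 DRG library 1 and TG library 2 this rested on 5, 6 and 5 reads of *Ddc*. Across the 16 libraries the correlation of the 2 genes in log2(CPM + 1) was 0.37, given as a description of libraries that share ganglia and depth.

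*Dbh* was at the floor in nearly every library, with 14 reads in the whole series. Of these, 8 came from T10-L1 DRG library 1 (1.22 CPM), 4 from TG library 2 (0.787 CPM) and 1 each from TG library 4 and L3-L5 DRG library 4. NG/JG held none in 4 libraries whose floor averaged 0.371 CPM. *Dbh*, *Th* and *Ddc* exceeded 3 reads together in 2 libraries, TG 2 and T10-L1 DRG 1. No comparison of its levels was possible above the floor.

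Markers of noradrenergic neurons were mostly low beside the synthesis genes. Of the 9 markers, *Npy* had no read in any library, *Hand2* reached at most 0.797 CPM and *Phox2a*, a factor of the noradrenergic fate, at most 9.04 CPM, in NG/JG library 1. The list's sum of 0.207 to 105 CPM in NG/JG, 51.1 to 266 in L3-L5 DRG, 58.0 to 131 in TG and 32.1 to 137 in T10-L1 DRG came largely from *Chga*, *Chgb* and *Gata2*, which other neurons and blood cells also express. NG/JG library 2 differed, with *Gata3*, also of the list, at 36.8 CPM of a sum of 87.6 CPM. *Pnmt*, which makes adrenaline, was found only in T10-L1 DRG library 1, at 0.306 CPM. The 7 markers of glomus and chromaffin cells summed to 81.4 to 587 CPM in NG/JG, with *Epas1*, which endothelium also expresses, at 81.4 to 405 CPM. *Kcnk3*, a potassium channel, and *Adora2a*, an adenosine receptor, had their highest values of the 16 libraries in NG/JG library 3, at 87.8 and 90.8 CPM, where *Th* was 182 and *Ddc* 33.0 CPM. They were at most 8.19 and 1.25 CPM in the other NG/JG libraries. All other markers of that list peaked outside NG/JG. *Epas1* and *Penk* were highest in L3-L5 DRG libraries 4 and 2, at 413 and 40.1 CPM. *Olfr78* was highest in T10-L1 DRG library 1 (22.3 CPM) and *Cox4i2* in TG library 2 (18.5 CPM). The part of such cells in the *Th* and *Ddc* reads was not tested.

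*Gch1* was present in all 4 TG libraries, at 44.8, 11.02, 5.67 and 27.4 CPM. In NG/JG it was 24.3, 29.0, 0 and 0 CPM, and in L3-L5 DRG 14.0, 0.0992, 0.0824 and 10.1 CPM. T10-L1 DRG had 1.68, 14.3, 6.49 and 23.6 CPM. Hence 4 libraries, 2 of NG/JG and 2 of L3-L5 DRG, held 0 or 1 read, and all 4 groups overlapped. The means of 22.2 ± 17.7 CPM in TG, 13.3 ± 15.5 in NG/JG, 11.5 ± 9.60 in T10-L1 DRG and 6.08 ± 7.09 in L3-L5 DRG (SD, n = 4) did not differ beyond this spread, and the lowest of its 6 pairwise adjusted p was 0.452, for TG against L3-L5 DRG (edgeR, 2.22 ± 1.40 log2 units).

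The libraries without *Gch1* were rich in *Th*. *Th* stood at 182, 137, 212 and 163 CPM in the 4 libraries with 0 or 1 read of *Gch1*, the enzyme that starts the synthesis of its cofactor, and the correlation of the 2 genes over the 16 libraries was -0.52. The same 4 libraries had low levels of macrophage and neutrophil markers, whose 6-gene sum was 5.94, 96.6, 22.6 and 144 CPM there. In 11 of the other 12 libraries that sum was 206 to 4696 CPM, and NG/JG library 2, with 29.0 CPM of *Gch1*, had a sum of 22.4 CPM and no read of *Aif1*. The part of these cells in the *Gch1* level was not tested.

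**Figure D2:**
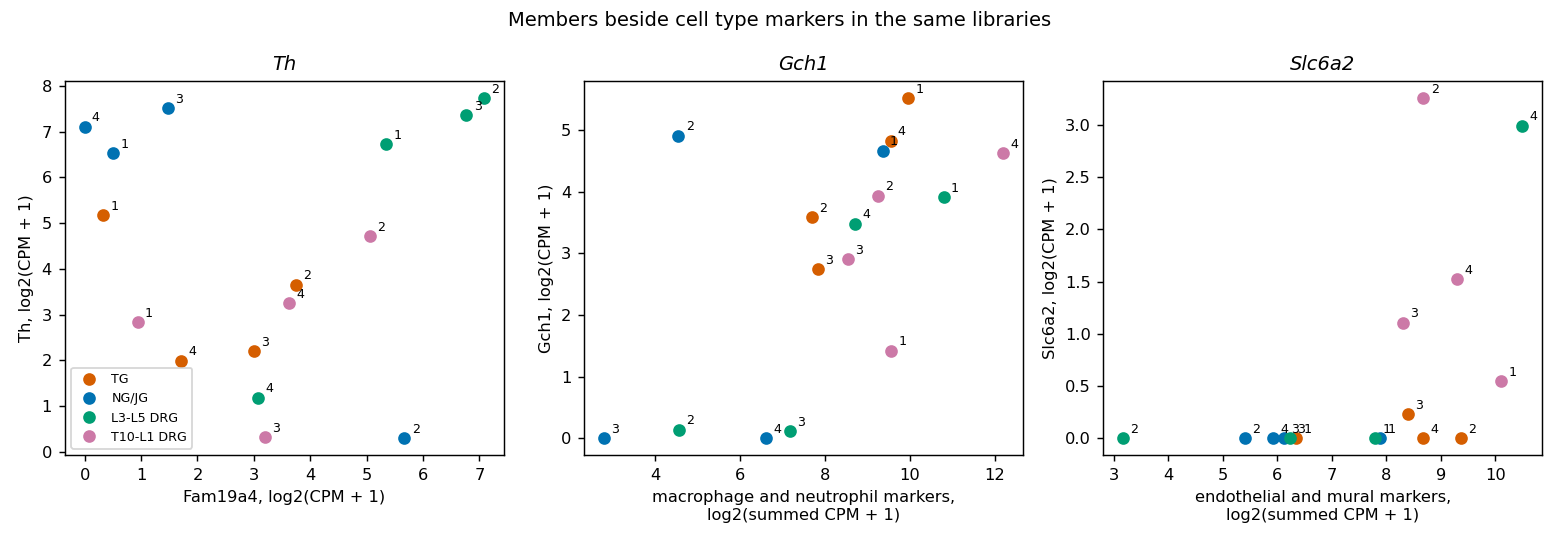
Each point is a library, numbered within its ganglion; axes are log2(CPM + 1). *Th* is plotted against *Fam19a4*, *Gch1* against the sum of 6 macrophage and neutrophil markers, and *Slc6a2* against the sum of 6 endothelial and mural markers; NG/JG libraries 1, 3 and 4 combine high *Th* with 0 to 1.80 CPM of *Fam19a4*, while *Gfra2*, another C-LTMR marker not plotted, was 59.96, 36.8 and 150 CPM there.

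*Slc18a2* was read in every DRG library. In T10-L1 DRG it was 16.8, 27.9, 30.1 and 17.5 CPM (mean 23.1 ± 6.90, SD, n = 4), and in L3-L5 DRG 26.4, 14.6, 2.31 and 16.05 CPM. TG had 0.254, 0.590, 1.37 and 9.31 CPM, all below T10-L1 DRG. NG/JG ran from 0 in library 2 and 0.138 in library 3 to 21.0 in library 1 and 132 in library 4, and this last library held 42.2% of all reads of the gene. TG was 2.61 ± 1.10 log2 units below T10-L1 DRG, with an adjusted p of 0.198 by edgeR and 0.0462 by DESeq2. TG library 4 set this size, since without it the difference was -4.56 log2 units (adjusted p = 0.0904, edgeR), and without any other library -2.73 to -2.21. In that pair CPM did not overlap with TG lower for 9.31% of the 18995 genes with reads.

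Other cells that carry this transporter were looked at beside it. The 8 mast cell markers summed to 0 to 7.10 CPM in NG/JG, 3.87 to 47.5 in L3-L5 DRG, 0 to 28.4 in T10-L1 DRG and 0.635 to 50.2 in TG, and the library with 132 CPM of *Slc18a2* had no read of any of the 8. The 6 platelet markers summed to 0.103 CPM in that library and to 0.103 to 692 CPM over the series. NG/JG library 4 had reads on 10132 genes, the fewest of the 16 libraries, and 0 CPM over the 15 adrenergic and dopamine receptors too. The contribution of such cells to the *Slc18a2* reads was not tested in any library.

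*Slc6a2* was detected above the floor in 4 libraries only. It was 0.459, 8.57, 1.15 and 1.88 CPM in T10-L1 DRG, from 3, 90, 14 and 25 reads, and 6.97 CPM in L3-L5 DRG library 4, from 33 reads. The remaining L3-L5 DRG libraries and all NG/JG libraries had no read, and TG had 1 read in library 3. Every T10-L1 DRG library thus exceeded every NG/JG and TG library, although T10-L1 DRG library 1 was itself at the floor. The mean of 3.01 ± 3.75 CPM in T10-L1 DRG (SD, n = 4) was at least 8.12-fold higher than NG/JG, taking 3 counts per library as the floor. Library 2 held 90 of the 132 reads, and without it, as computed after seeing the data, the mean was 1.16 CPM and the bound at least 3.13-fold. Both bounds cover counting error only. NG/JG libraries held reads on fewer genes (10132 to 13029) than T10-L1 DRG libraries (14237 to 16694), and transcripts lost before counting are not covered.

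The edgeR filter kept *Slc6a2* only for L3-L5 against T10-L1 DRG, where the difference was -0.86 ± 1.96 log2 units (adjusted p = 0.940). Without L3-L5 DRG library 4, whose 33 reads are all that this ganglion had, the adjusted p was 0.331 (edgeR), and the group then stood at 0. DESeq2 called T10-L1 DRG above NG/JG (adjusted p = 0.00342) and above TG (adjusted p = 0.0158). The share of genes without overlap in the same direction was 6.21% for NG/JG below T10-L1 DRG. The pericyte marker *Rgs5* was low in NG/JG, at 0.103 to 0.228 CPM there, 0.199 to 216 in L3-L5 DRG, 89.5 to 258 in T10-L1 DRG and 17.9 to 47.0 in TG. The 6 endothelial and mural markers summed to 315 to 1103 CPM in T10-L1 DRG, 1445 CPM in L3-L5 DRG library 4, 8.04 to 221 in its other 3 libraries, 80.6 to 661 in TG and 41.3 to 236 in NG/JG. Their part in the *Slc6a2* reads was not tested.

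*Maoa* was the one member read in quantity in all 16 libraries and the least variable. TG had 25.9, 29.9, 24.7 and 23.7 CPM, a spread of 26.1 ± 2.71 (SD, n = 4). T10-L1 DRG had 92.6, 59.8, 56.5 and 77.2 CPM and L3-L5 DRG 82.8, 147, 43.0 and 129 CPM, so every DRG library lay above every TG library. NG/JG split into 21.4 and 27.2 CPM in libraries 1 and 2 and 173 and 97.1 CPM in libraries 3 and 4, spanning the ranges of both. The biological coefficient of variation of *Maoa* in the joint fit was 0.620, below that of *Th* (1.196), *Slc18a2* (1.39), *Maob* (1.47), *Gch1* (1.53) and *Ddc* (1.94), and 20.3% of the 14236 tested genes varied less.

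*Maoa* was 1.57 ± 0.46 log2 units lower in TG than in L3-L5 DRG and 1.09 ± 0.36 lower than in T10-L1 DRG. The adjusted p were 0.111 and 0.104 by edgeR and 0.0129 and 0.00680 by DESeq2. Without TG library 1 the difference from T10-L1 DRG was -1.03 log2 units with an adjusted p of 0.0305 (edgeR), and 3583 genes passed in place of 758. CPM did not overlap with TG lower for 8.08% of genes in the first pair and 9.31% in the second, so that the separation of *Maoa* is one of many of its kind. The DRG did not differ beyond the spread of their libraries, at 0.44 ± 0.39 log2 units (adjusted p = 0.849, edgeR). TG lay 1.43 ± 0.81 log2 units below NG/JG, with an adjusted p of 0.631 (edgeR). The 6 satellite glia markers stood the other way, with sums of 33008 to 64260 CPM in TG, 29881 to 45414 in NG/JG, 13022 to 31737 in L3-L5 DRG and, for T10-L1 DRG, 19727 to 30719, and their part in the *Maoa* difference was not tested.

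*Maob* was low in TG, at 1.78, 4.52, 1.72 and 0.351 CPM. In L3-L5 DRG it was 9.82, 4.76, 17.6 and 27.9 CPM, all above TG, and in T10-L1 DRG 12.5, 0.952, 22.3 and 21.8 CPM. In NG/JG 1 library, number 2, had 101 CPM and the other 3 had 0.139, 0.415 and 0 CPM, so that 890 of the 2090 reads of the whole series came from it. The mean of 25.5 ± 50.5 CPM in NG/JG (SD, n = 4) was therefore set by 1 library. With it the fitted difference was 0.83 log2 units from L3-L5 DRG and 0.80 from T10-L1 DRG, and without it the sign turned, with the other 3 libraries at or under the floor, so that no size is given. TG was 2.42 ± 1.09 log2 units below L3-L5 DRG, with an adjusted p of 0.271 by edgeR and 0.0429 by DESeq2. With library sizes scaled by TMM factors the CPM of *Maob* overlapped in that pair.

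Between the 2 oxidases, *Maoa* was the higher in every library but one. In RPKM it exceeded *Maob* by 1.64-fold to 42.0-fold in the 11 libraries other than NG/JG library 2 in which *Maob* had more than 3 reads. In NG/JG library 2 the order was reversed, with 6.53 RPKM of *Maoa* against 36.3 RPKM of *Maob*. That library was also the one of NG/JG without *Th*, *Ddc* or *Slc18a2* above the floor.

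**Figure D3:**
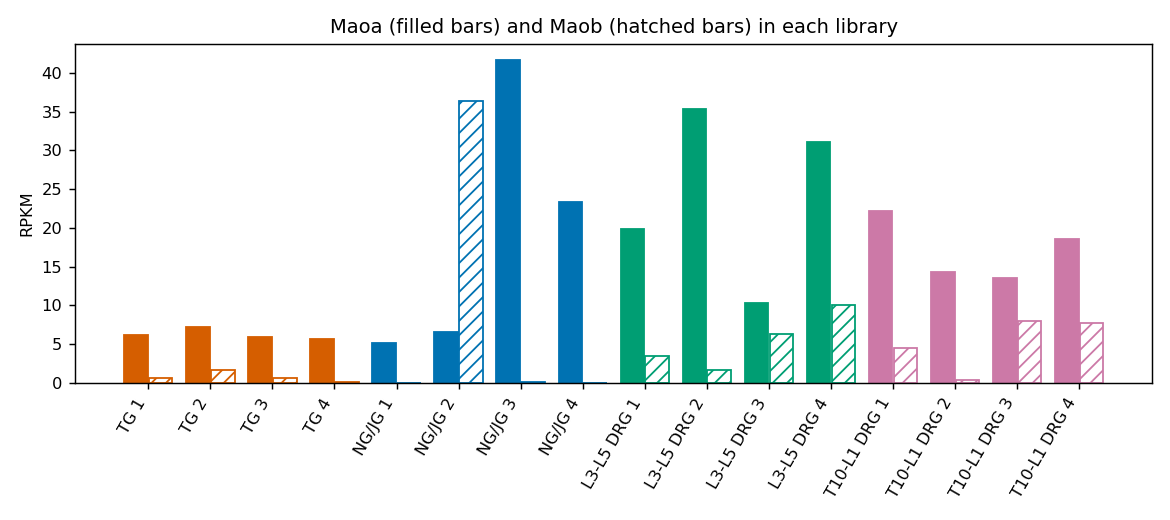
Level of *Maoa* (filled bars) and *Maob* (hatched bars) in RPKM (vertical axis) in each library, coloured by ganglion. *Maob* exceeded *Maoa* only in NG/JG library 2, and the 4 TG libraries held 5.69 to 7.18 RPKM of *Maoa*.

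**Figure D4:**
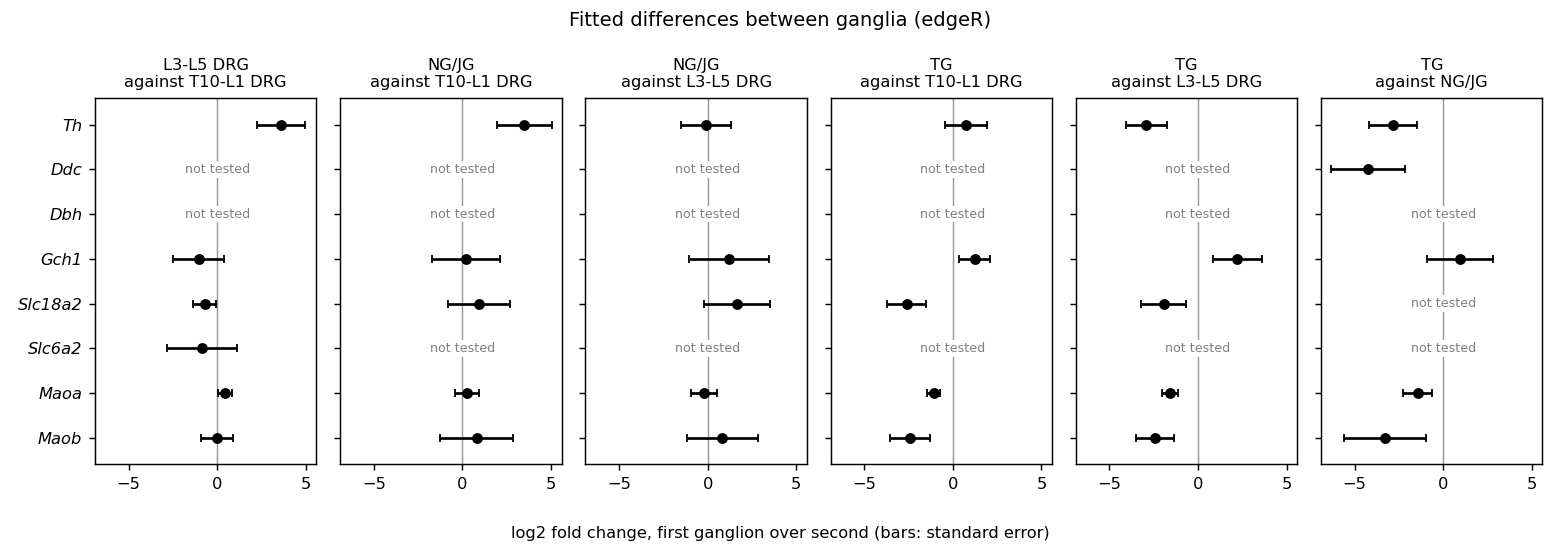
Fitted log2 fold change of each tested member between ganglia (horizontal axis, first ganglion over second) with its standard error as a bar; genes removed by the filter on low counts are marked as not tested. None passed an adjusted p of 0.05 by edgeR, and *Maoa* had the shortest bars.

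Across all 8 members, levels per exon length ranked *Th* first, with a mean of 26.0 RPKM over the 16 libraries, and *Maoa* next with 16.7 RPKM. *Slc18a2*, *Maob* and *Gch1* followed with 5.19, 5.10 and 4.79 RPKM, and *Ddc*, *Slc6a2* and *Dbh* closed the order with 1.21, 0.194 and 0.0556 RPKM. CPM did not overlap between groups for 3 members in TG against T10-L1 DRG (*Slc18a2*, *Slc6a2* and *Maoa*; 13.0% of all genes), 2 in TG against L3-L5 DRG (*Maoa* and *Maob*; 10.7%), 1 in NG/JG against T10-L1 DRG (*Slc6a2*; 7.31%) and none in L3-L5 against T10-L1 DRG (2.67%), NG/JG against L3-L5 DRG (5.72%) and TG against NG/JG (7.32%). In each of these cases TG or NG/JG was the lower group. Before adjustment, edgeR gave p under 0.05 for *Th*, *Maoa* and *Maob* in TG against L3-L5 DRG, where 18.2% of all genes had such a p, and for *Maoa* and *Slc18a2* in TG against T10-L1 DRG, where 21.6% had. *Th* alone had one in L3-L5 against T10-L1 DRG (6.07% of all genes) and NG/JG against T10-L1 DRG (5.91%), and no member in NG/JG against L3-L5 DRG (6.04%) or TG against NG/JG (10%). Among the 4 ganglia *Ddc* and *Th* had one (17.5%). Pairs that share a ganglion share its libraries.

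The rest of the pathway was read from lists of 10 further synthesis genes, 7 transporters, 10 breakdown genes and 15 receptors. By edgeR, genes of these lists passed only in TG against T10-L1 DRG, where 3 of the 16 tested did, beside 5.87% of all genes. In the other pairs edgeR called 0% to 0.0510% of all genes. *Gchfr*, the feedback regulator of GTP cyclohydrolase, was 14.0, 11.02, 3.44 and 9.13 CPM in TG and at most 0.411 CPM in T10-L1 DRG (5.96 ± 1.46 log2 units, adjusted p = 0.0429). *Comtd1*, a putative methyltransferase, was 2.65 ± 0.58 log2 units higher in TG (adjusted p = 0.0336, edgeR). Exons of *A430057M04Rik* and *Vdac2* on the other strand overlap 36.7% of its exon bases, and the strand setting of the counts is not known. *Aldh1a1*, an aldehyde dehydrogenase, fell by 2.59 ± 0.44 log2 units in TG (adjusted p = 0.0254, edgeR), from 210 to 820 CPM in T10-L1 DRG to 50.8 to 79.1 CPM. Each of the 3 passed with DESeq2 too, but none kept an adjusted p under 0.05 with all 16 libraries in one fit (lowest 0.33). Pituitary markers moved with TG too: the 6 summed to 401, 1952, 9501 and 70.8 CPM in TG libraries 1 to 4 and to 1.55 to 20.7 CPM in the other 12 libraries, and their part in the TG differences was not tested. Leaving out any of TG libraries 2, 3 and 4 or T10-L1 DRG libraries 1, 2 and 3 took each of the 3 above 0.05 as well.

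The median log2 fold change of TG over T10-L1 DRG was 1.32 over the 5 tested synthesis genes and 1.03 over the 8 tested breakdown genes, beside -0.03 over all tested genes. For the 1 tested transporter of these lists it was -2.48, and over the 2 tested receptors 0.15. Among the members it was 0.98 over the 2 tested synthesis genes, -1.76 over the 2 breakdown genes and -2.61 for the 1 tested transporter. *Qdpr*, *Spr* and *Pts*, which make or regenerate tetrahydrobiopterin, were the most abundant of the synthesis list, at means of 204, 74.2 and 39.1 CPM. These 3 were above the floor in 15 or 16 libraries, while *Gch1* was above the floor in 12. *Tph1* and *Tph2*, which start serotonin synthesis, averaged 1.17 and 0.584 CPM.

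Among breakdown genes *Akr1a4*, an aldehyde reductase, and *Aldh2*, the mitochondrial aldehyde dehydrogenase, had means of 694 and 305 CPM and were above the floor in all 16 libraries. Of the transporters edgeR tested 1 or 2 in each pair and called none, with an unadjusted p under 0.05 for *Slc29a4* in TG against L3-L5 DRG. DESeq2, which tested 1 to 5, called *Slc22a3* in NG/JG against T10-L1 DRG, *Slc22a2* in TG against T10-L1 DRG and *Slc29a4* in TG against L3-L5 DRG, 1 in each pair. *Slc29a4*, a low-affinity monoamine carrier, had a mean of 20.9 CPM with 25.4, 79.2, 43.6 and 14.1 CPM in L3-L5 DRG. *Slc6a3*, the dopamine transporter, was read at 44.0 CPM in NG/JG library 2 and at most 1.69 CPM elsewhere, and *Slc22a2* at 58.0 CPM in TG library 1 and at most 6.55 CPM elsewhere.

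No receptor passed by edgeR, with 1 or 2 of 15 tested in each pair, and *Adra2a* in NG/JG against T10-L1 DRG was the 1 with an unadjusted p under 0.05 in a pair and the 1 called by DESeq2. *Adra2b* and *Adra2a*, of the inhibitory alpha-2 class, averaged 4.96 and 3.49 CPM. *Adra2b* was 32.4 and 26.2 CPM in L3-L5 DRG libraries 2 and 3 and at most 7.64 CPM elsewhere.

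The genes whose profile over the 16 libraries was most like that of each member were ranked by Pearson's r of log2(CPM + 1) among 14275 genes with a mean of at least 1 CPM. For *Th* these were *Cisd2*, *Fbxo9* and *Cdk7* (r = 0.83, 0.82 and 0.81), and for *Ddc* *Ltk*, *Zscan2* and *Actn2* (0.89, 0.87 and 0.86). *Gch1* was closest to *Plekho1*, *Cx3cr1* and *Angptl7* (0.93, 0.90 and 0.90), of which *Cx3cr1* is the fractalkine receptor of macrophages. *Slc18a2* was closest to *Obfc2a*, *Rp2h* and *Wdr36* (0.95, 0.93 and 0.93) and *Slc6a2* to *Fhl4*, *Syt15* and *Cyp3a13* (0.92, 0.91 and 0.87). *Maoa* was closest to *Arl1*, *Hoxc4* and *Papolg* (0.84, 0.83 and 0.82) and *Maob* to *Adcy8*, *Gm4944* and *Nle1* (0.90, 0.85 and 0.84). No member was among the closest genes of another. Between members, r ran from -0.63 (*Gch1* with *Maoa*) to 0.37 (*Th* with *Ddc*). These values describe 16 libraries that share ganglia, and for *Slc6a2* and *Ddc* they rest on the few libraries with reads.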

How the data were processed

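RNA-seq was measured in 16 libraries, 4 per ganglion. The authors made oligo dT-primed SMART-seq2 cDNA and sequenced it as single-end reads; TopHat2 placed these on mm9 and HTSeq gave the count of each gene; tool versions, annotation and strand setting are not given in the sources used here. The deposited values are raw counts per gene symbol, without normalization, and the counter's totals of unassigned reads were left out of library sizes and tests. CPM is the count over reads on genes, and RPKM uses the union of exons of GENCODE M1 on NCBIM37, the assembly of mm9.

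The 6 pairs of ganglia were fitted with 8 libraries apiece, and the 4 ganglia jointly with 16, with edgeR 4.0.16 in R 4.3.3 (TMM, filterByExpr, quasi-likelihood F test, Benjamini-Hochberg adjustment over all genes tested, 0.05), with group as the only term. Alternatives were DESeq2 1.42.0, RLE factors, no filter, all 16 libraries in one fit, the replicate number as a block and each library left out. Scripts were tested on simulated data. The labels do not say that libraries are of separate animals, so p-values measure the spread between these libraries. No 2 libraries of a ganglion agreed within sampling noise (chi-square per gene 29.9 to 375 in 24 pairs). Counting error falls with depth (4735624 to 13333318 reads on genes), while the spread between libraries does not. Groups and library numbers come from the sample titles.

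The members and lists were chosen with earlier results of these data known. Named are the 8 members, list genes that passed a fit (otherwise the 3 of highest mean CPM) and the 3 genes most like each member with a mean of at least 1 CPM; *Tph1*, *Tph2*, *Pnmt* and the marker genes were named after their values were seen. Some genes that this rule names are not reported here. The dissociation response, Schwann cell and fibroblast lists summed to 2680 to 50693, 7926 to 53314 and 276 to 10404 CPM over the libraries. Python 3.11.15 was used for summaries and figures.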

Additional observations from a re-analysis of the deposited data

Results flagged for a closer look

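In each ganglion with more than 3 counts of a member in some library, the highest or lowest of the 4 libraries was compared with the rest by Dixon's ratio of gap to range at the 95% level. In 7 of 28 groups a library stood apart. Chance gives about 1 in 20 for normally distributed values, which these are not: in 4 of the 7 the other 3 libraries were at 0, which sets the ratio to 1, so the number of groups is a description. *Maob* in NG/JG library 2 was 101 CPM, beside 0 to 0.415 CPM in the other 3. *Slc18a2* was 132 CPM in NG/JG library 4 (0 to 21.0 in the others) and 9.31 CPM in TG library 4 (0.254 to 1.37 in the others). *Slc6a2* was 6.97 CPM in L3-L5 DRG library 4, where the other 3 had no read. The remaining cases rest on 5 to 8 reads in a group whose other libraries had none. These were *Ddc* at 1.06 CPM in L3-L5 DRG library 4 and 0.917 CPM in T10-L1 DRG library 1, and *Dbh* at 1.22 CPM in the same T10-L1 DRG library.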

How the results depend on the processing

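The members' result, 0 called by edgeR in all 7 comparisons, was the same with RLE factors, without a filter, with the replicate block and with all 16 libraries in one fit (pairs only). DESeq2 called 2 members in NG/JG against T10-L1 DRG, 1 in NG/JG against L3-L5 DRG, 3 in TG against T10-L1 DRG, 2 in TG against L3-L5 DRG and 1 among the 4 ganglia. Each library left out gave 0 to 1 in TG against T10-L1 DRG (1 without TG library 1) and 0 to 0 elsewhere. Counts over all genes depended on the tool. In the order L3-L5 against T10-L1 DRG, NG/JG against T10-L1 DRG, NG/JG against L3-L5 DRG, TG against T10-L1 DRG, TG against L3-L5 DRG, TG against NG/JG and joint, edgeR called 0, 4, 0, 758, 0, 6 and 429 genes, DESeq2 78, 910, 793, 2194, 1612, 856 and 1869, and edgeR without adjustment 823, 735, 739, 2795, 2342, 1180 and 2489. From the second of these on, edgeR without a filter called 9, 2, 427, 39, 56 and 241, and with all 16 libraries 54, 83, 238, 206 and 484 in the pairs. With a library left out the ranges were 0 to 0, 1 to 5, 0 to 2, 0 to 3583, 0 to 2038, 1 to 325 and 33 to 1035. The highest of the last 4 were without TG library 1. TG against T10-L1 DRG gave 119 without T10-L1 DRG library 4 and 0 or 1 without any of the other 6. The replicate block gave 0 for NG/JG against T10-L1 DRG, 0 for TG against T10-L1 DRG, 1 for TG against NG/JG and 184 for the joint test.

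The labels do not say whether library numbers pair the libraries, and the correlations of deviations did not settle it. For same-numbered libraries their mean was 0.008 to 0.107 by pair and their lowest -0.12 to 0.05. For other numbers the mean was -0.036 to -0.003. In NG/JG against L3-L5 DRG 4 of 4 libraries correlated best with their own number, in TG against T10-L1 DRG 3 and in L3-L5 against T10-L1 DRG 0. The block turned the sign, without a call, of *Maob* for L3-L5 against T10-L1 DRG (0.37), of *Gch1* (-2.65), *Slc18a2* (-3.12), *Maoa* (-0.25) and *Maob* (-5.58) for NG/JG against T10-L1 DRG, of *Th* (0.015), *Gch1* (-0.17), *Slc18a2* (-1.88) and *Maob* (-5.29) for NG/JG against L3-L5 DRG and of *Maob* (2.00) for TG against NG/JG, all log2 units. Leaving out 1 library turned signs too, with ranges for L3-L5 against T10-L1 DRG of -8.00 to 0.41 (*Slc6a2*; the lowest against L3-L5 DRG libraries all at 0, so no measure of size) and -0.48 to 0.27 (*Maob*). For NG/JG against T10-L1 DRG they were -0.48 to 0.92 (*Gch1*), -1.66 to 1.42 (*Slc18a2*), -0.33 to 0.58 (*Maoa*) and -6.19 to 1.24 (*Maob*). For NG/JG against L3-L5 DRG they were -0.51 to 0.36 (*Th*), -0.98 to 2.11 (*Slc18a2*), -0.81 to 0.15 (*Maoa*) and -6.15 to 1.29 (*Maob*). *Th* ran from -0.24 to 1.66 in TG against T10-L1 DRG and *Maob* from -4.06 to 3.65 in TG against NG/JG. The *Maob* values of -6.19, -6.15 and 3.65 are without NG/JG library 2, where NG/JG is at or under the floor, and do not measure size. The causes were not tested.

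Of 64 mean CPM under other scalings, 60 moved by less than 1 SD; with TMM sizes *Maoa* in TG became 31.4, and over reads on genes plus those off genes *Maoa* became 15.2 in TG and 44.2 in T10-L1 DRG and *Slc18a2* 14.8 in T10-L1 DRG. *Dbh*, and *Ddc* outside NG/JG, had at most 13 reads in a library, and differences at that level were not detectable.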
